A study of Mus musculus with 2 samples.

Results

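The interferon receptor gene Ifngr2 and 8 interferon response genes (Irf1, Irf7, Isg15, Bst2, Ifi27l2a, Ly6e, Gbp2 and Igtp) were followed across the cell groups of a single-cell RNA dataset of intestinal group 3 innate lymphoid cells (ILC3s). They are 9 of the 23679 genes counted in either library, over all cells and sample tags. They were listed by name with earlier results of these data in view. No record says which values led to each name, so the levels below are descriptions and the p-values support nothing on their own. The cells were sorted as ILC3s, lymphocytes of the gut wall that carry no antigen receptor and secrete IL-22 and IL-17, from the lamina propria of the small intestine. The donors were male C57BL/6 mice aged 18 months. Genotype and treatment are not stated in the labels, nor whether the 2 replicates were separate animals or pools. Each replicate was 1 sample tag (tag 6 in replicate 1, tag 12 in replicate 2) of its own multiplexed BD Rhapsody library, a microwell system that counts each captured transcript by a unique molecular identifier (UMI). Any spread between the replicates may therefore be technical.

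Interferon-gamma binds a receptor made of the ligand-binding chain IFNGR1 and the signalling chain IFNGR2, and the kinases JAK1 and JAK2 then pass the signal to factors that bind GAS elements in target promoters. Type I interferons use IFNAR1 and IFNAR2, and their signal reaches ISRE elements. In the gut wall these pathways restrict viruses and intracellular bacteria, and T cells and group 1 lymphoid cells are the best known sources of interferon-gamma there.

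Cells were kept where 300 or more genes had a UMI and mitochondrial genes held no more than 25% of the UMIs, 3337 in replicate 1 and 3840 in replicate 2, and were split into 4 groups by UMIs of 6 defining genes. The T group had a UMI of Cd3d, Cd3e or Cd3g (1149 and 1117 cells in replicates 1 and 2). Among the other cells, the Ncr1 group had a UMI of the natural cytotoxicity receptor gene Ncr1 (608 and 438), the Ccr6/Cd4 group had a UMI of the lymphoid tissue inducer markers Ccr6 or Cd4 but none of Ncr1 (128 and 79), and the rest had none of these (1452 and 2206). A kept cell held a median of 1880.0 UMIs in replicate 1 and 1674 in replicate 2, and group medians ran from 1579 to 2045. Levels are given as UMIs of a gene per 1000000 UMIs of the group (CPM). All 10 core ILC3 markers were counted in every group, and they summed to 5408 and 6719 CPM in the T group and to 7611 to 10976 CPM in the others. The sort label goes against the T group, which held 34.4% and 29.1% of kept cells. The 14 T cell markers summed to 5960 and 4982 CPM there and to 950 to 1708 CPM in the other groups, where Cd3d, Cd3e and Cd3g were at 0 by construction. Within the Ccr6/Cd4 group, Ccr6 stood at 496 and 292 CPM and Cd4 at 475 and 546 CPM in replicates 1 and 2. The T cell receptor gene Trac stood at 37.8 and 208 CPM in that group, and Tcrg-C1 at 307 and 208 CPM. Trac was at 46.3 and 28.7 CPM in the Ncr1 group and at 56.6 and 112 CPM in the rest. Whether the Ccr6/Cd4 group held T cells without a UMI of Cd3d, Cd3e or Cd3g was not tested. A UMI of the antibody light chain gene Igkc was found in 36.0% of kept cells of replicate 1 and 4.32% of replicate 2, and 10 cell barcodes occurred in both libraries. The stromal marker list summed to 534 to 4688 CPM over the groups of replicate 1 and to 26.0 to 122 CPM over those of replicate 2, with 96 and 11 cells holding 10 or more stromal UMIs.

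Promoters are shown for the members whose letters match the elements named above, because these are the sequence features the interferon pathways act through. The window was the 250 bases before the RefSeq start (GRCm38.p6), read on both strands for 2 GAAA words with any 2 bases between them (ISRE-like) and for TTCNNNGAA (GAS-like), and 7 of the 9 members had a promoter in the table. Capitals mark the bases inside a match, the strand is that of the gene, and each sequence runs 5′ to 3′.
Isg15, chr4:156200863-156200908, minus strand, 3 overlapping ISRE-like matches: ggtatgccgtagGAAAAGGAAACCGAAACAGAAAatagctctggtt
Gbp2, chr3:142620592-142620625, plus strand, 1 ISRE-like match on the opposite strand: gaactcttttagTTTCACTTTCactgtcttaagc
Bst2, chr8:71537575-71537620, minus strand, 1 GAS-like match that overlaps the first of 2 ISRE-like matches: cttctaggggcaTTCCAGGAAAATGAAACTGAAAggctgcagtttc
Igtp, chr11:58199499-58199543, plus strand, 1 GAS-like and 1 ISRE-like match: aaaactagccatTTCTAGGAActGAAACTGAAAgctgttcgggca
Irf1, chr11:53769912-53769944, plus strand, 1 GAS-like match: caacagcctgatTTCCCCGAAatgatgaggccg
ISRE-like letters were present for 4 of the 7 members and in 2.98% of the 32851 promoters in the table (3.46% of genes, counting any promoter of a gene). GAS-like letters were present for 3 of the 7 and in 7.02% of all promoters (8.13% of genes). The windows of Ifngr2 and Irf7 held neither, which says only that these letters are not in those bases. The matches ended between 25 and 115 bases before the RefSeq start, the nearest in Igtp and the farthest in Bst2. The printed Gbp2 stretch includes position 142620602, where the gene starts in the GENCODE annotation. Its match thus lies before the RefSeq start but not before the GENCODE start.

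Ifngr2 encodes the signalling chain of the interferon-gamma receptor (GRCm38, chromosome 16, 91547072 to 91565623, plus strand), and it had 101 and 74 UMIs in all. In replicate 1 it stood at 42.0 CPM in the Ccr6/Cd4 group, 17.5 in the rest, 14.1 in the T group and 4.48 in the Ncr1 group. In replicate 2 the levels were 19.5, 10.6, 13.7 and 3.45 CPM in the same groups. The Ncr1 group was lowest and the Ccr6/Cd4 group highest in both replicates, and the T group and the rest changed places between them. These levels rest on 10 and 3 UMIs in the Ccr6/Cd4 group and on 6 and 3 UMIs in the Ncr1 group. The exact 95% Poisson intervals of those 2 groups did not overlap in replicate 1 (20.2 to 77.3 against 1.65 to 9.76 CPM) and overlapped in replicate 2 (4.02 to 56.9 against 0.710 to 10.1 CPM). In replicate 1 the Ccr6/Cd4 interval also overlapped that of the rest (12.9 to 23.2 CPM), but not that of the T group (9.93 to 19.4 CPM). In replicate 2 it contained the intervals of the T group (9.19 to 19.7 CPM) and the rest (7.55 to 14.5 CPM). Over both replicates the Ncr1 group held 0.123 times the Ccr6/Cd4 level (95% counting interval 0.0463 to 0.311). An Ifngr2 UMI was seen in 7.03% and 3.80% of Ccr6/Cd4 cells and in 0.658% and 0.685% of Ncr1 cells. After thinning to 1000 UMIs per cell, which left out 186 and 313 shallower cells and left 119 and 74 Ccr6/Cd4 cells, the shares were 4.20% and 2.70% against 0.338% and 0.239%, in the same order.

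The partner chain Ifngr1 was ordered differently. It stood at 752 and 994 CPM in the Ccr6/Cd4 group of replicates 1 and 2, 1337 and 1511 CPM in the Ncr1 group and 1267 and 1440 CPM in the T group. By CPM the Ccr6/Cd4 group was thus lowest for the ligand-binding chain and highest for the signalling chain in both replicates. For the signalling chain this order is limited by the overlapping intervals given above. Among the 3151 genes with a mean of at least 50 CPM, the levels most like those of Ifngr2 over the 8 group sums were those of Ankhd1 (Pearson r = 0.98), Cdkn1a (0.93) and Sptssa (0.90). These sums share 2 libraries and Ifngr2 is sparse in them, so the likeness is a description.

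Irf1 encodes a transcription factor that interferon-gamma induces (chromosome 11, 53770014 to 53778374, plus strand). Its levels in replicates 1 and 2 were 503 and 722 CPM in the T group, 558 and 837 CPM in the Ncr1 group, 618 and 611 CPM in the Ccr6/Cd4 group and 563 and 860 CPM in the rest. Replicate 2 was higher in 3 of the 4 groups. Within replicate 2 the Ccr6/Cd4 interval (493 to 747 CPM) lay below that of the rest (831 to 891 CPM). A UMI of Irf1 was found in 51.7% and 56.9% of kept cells, and in 34.4% and 44.6% after thinning.

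Irf7 encodes the factor that amplifies the type I interferon response (chromosome 7, 141262706 to 141266481, minus strand). It stood at 179 and 93.0 CPM in the Ncr1 group of replicates 1 and 2, 134 and 87.2 CPM in the rest, and 93.8 and 62.0 CPM in the T group. In the Ccr6/Cd4 group it stood at 42.0 and 104 CPM, on 10 and 16 UMIs. The order Ncr1 group, rest, T group held in both replicates, while the Ccr6/Cd4 group was lowest in replicate 1 and highest in replicate 2. The levels most like those of Irf7 over the 8 sums were those of Ripor2, Rapgef1 and Glud1 (Pearson r = 0.92 for each, over 3150 genes).

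Bst2, the first of the antiviral effectors, encodes tetherin, which holds budding enveloped viruses at the cell surface (chromosome 8, 71534255 to 71537456, minus strand). Bst2 stood at 96.7 and 84.4 CPM in the Ccr6/Cd4 group, 44.5 and 24.5 CPM in the rest, 33.5 and 23.2 CPM in the T group, and 29.1 and 14.9 CPM in the Ncr1 group. Both Ccr6/Cd4 values lay above all 6 values of the other groups, and the order of the 4 groups was the same in both replicates. Thinned to equal depth, 9.24% and 6.76% of Ccr6/Cd4 cells had a Bst2 UMI, against 2.20% and 0.477% of Ncr1 cells and 2.69% and 2.44% of T cells.

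Isg15, a ubiquitin-like protein that is attached to other proteins during antiviral responses (chromosome 4, 156199424 to 156200818, minus strand), was alike in both replicates outside the Ccr6/Cd4 group. It stood at 56.8 and 54.9 CPM in the T group, 39.6 and 43.6 CPM in the Ncr1 group and 43.8 and 45.2 CPM in the rest. The Ccr6/Cd4 values of 46.2 and 90.9 CPM came from 11 and 14 UMIs, and their intervals (23.1 to 82.7 and 49.7 to 153 CPM) overlapped each other.

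Ly6e encodes a lipid-anchored surface protein of the Ly6 family that is induced by interferon (chromosome 15, 74955051 to 74959905, plus strand), and it had the most UMIs of the 9 members. Its levels were 3620 and 2572 CPM in the Ccr6/Cd4 group, 2612 and 2017 CPM in the T group, 2753 and 1991 CPM in the Ncr1 group and 2792 and 2028 CPM in the rest. The Ccr6/Cd4 group was highest within each replicate, but its value in replicate 2 lay below the values of every group in replicate 1. A Ly6e UMI was present in 96.8% and 91.4% of kept cells. The levels most like it over the 8 sums were those of Apobec3 (Pearson r = 0.98), Uqcr11 (0.97) and Actb (0.96).

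Ifi27l2a encodes a small interferon-induced membrane protein (chromosome 12, 103442167 to 103443680, minus strand), and its UMIs lay in few cells. It stood at 54.9 and 5.20 CPM in the T group, 29.1 and 5.74 CPM in the Ncr1 group, 48.2 and 4.63 CPM in the rest, and 12.6 CPM in the Ccr6/Cd4 group of replicate 1. The Ccr6/Cd4 group of replicate 2 had 0 UMIs, which allows up to 19.5 CPM (3 UMIs). The T group, the Ncr1 group and the rest were higher in replicate 1, and the Ccr6/Cd4 counts of 3 and 0 UMIs show no direction. The top 1% of cells held 69.2% of its UMIs there, and the 96 cells with 10 or more stromal UMIs held 82.1% of them, while these cells held 6.71% of the UMIs of all genes. Ifi27l2a stood at 561 CPM in those cells and at 8.80 CPM in the other cells of replicate 1. In replicate 2 it stood at 212 CPM in the 11 such cells and at 3.84 CPM in the others. The 35 cells of replicate 1 with 10 or more myeloid UMIs, a set that overlaps the stromal one, held 39.6% of its UMIs, at 410 CPM. Cells with 10 or more B or plasma UMIs stood at 97.7 and 107 CPM in replicates 1 and 2, on 10 and 5 UMIs.

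**Figure D1:**
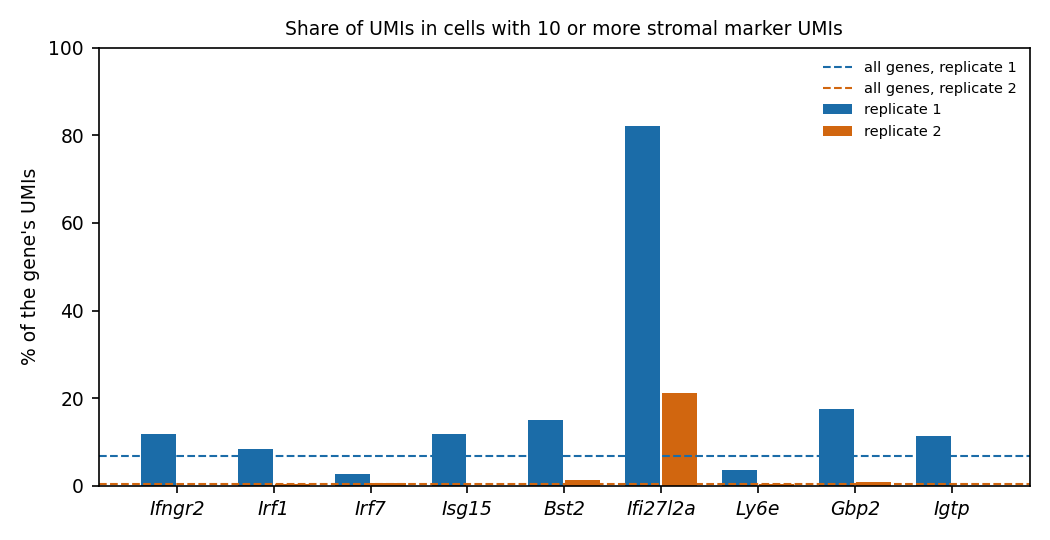
Percentage of each gene's UMIs that lay in cells with 10 or more UMIs of the stromal marker list (bars, blue for replicate 1 and orange for replicate 2; dashed lines give the percentage for all genes together, 6.71% and 0.485%). Ifi27l2a stands at 82.1% and 21.2%, above the other 8 genes in both replicates.

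Gbp2 encodes a guanylate-binding protein that attacks the membranes around intracellular pathogens (chromosome 3, 142620602 to 142638008, plus strand). Its levels in replicates 1 and 2 were 79.7 and 48.7 CPM in the T group, 64.3 and 43.6 CPM in the Ncr1 group, 50.4 and 39.0 CPM in the Ccr6/Cd4 group and 74.8 and 33.8 CPM in the rest. Igtp, which encodes the immunity-related GTPase Irgm3 (chromosome 11, 58199556 to 58207591, plus strand), went the other way between replicates. It stood at 87.7 and 192 CPM in the T group, 73.2 and 121 CPM in the Ncr1 group, 92.5 and 77.9 CPM in the Ccr6/Cd4 group and 77.4 and 162 CPM in the rest. For both GTPases the ranges of the 4 groups over the 2 replicates overlapped, but these ranges include the shift between replicates. Within replicate 2 the Igtp interval of the T group (174 to 212 CPM) lay above those of the Ncr1 group (98.6 to 146 CPM) and the Ccr6/Cd4 group (40.3 to 136 CPM). Within replicate 1 the T group interval (76.7 to 99.8 CPM) overlapped those of the Ncr1 group (59.5 to 89.3 CPM) and the Ccr6/Cd4 group (58.0 to 140 CPM).

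**Figure D2:**
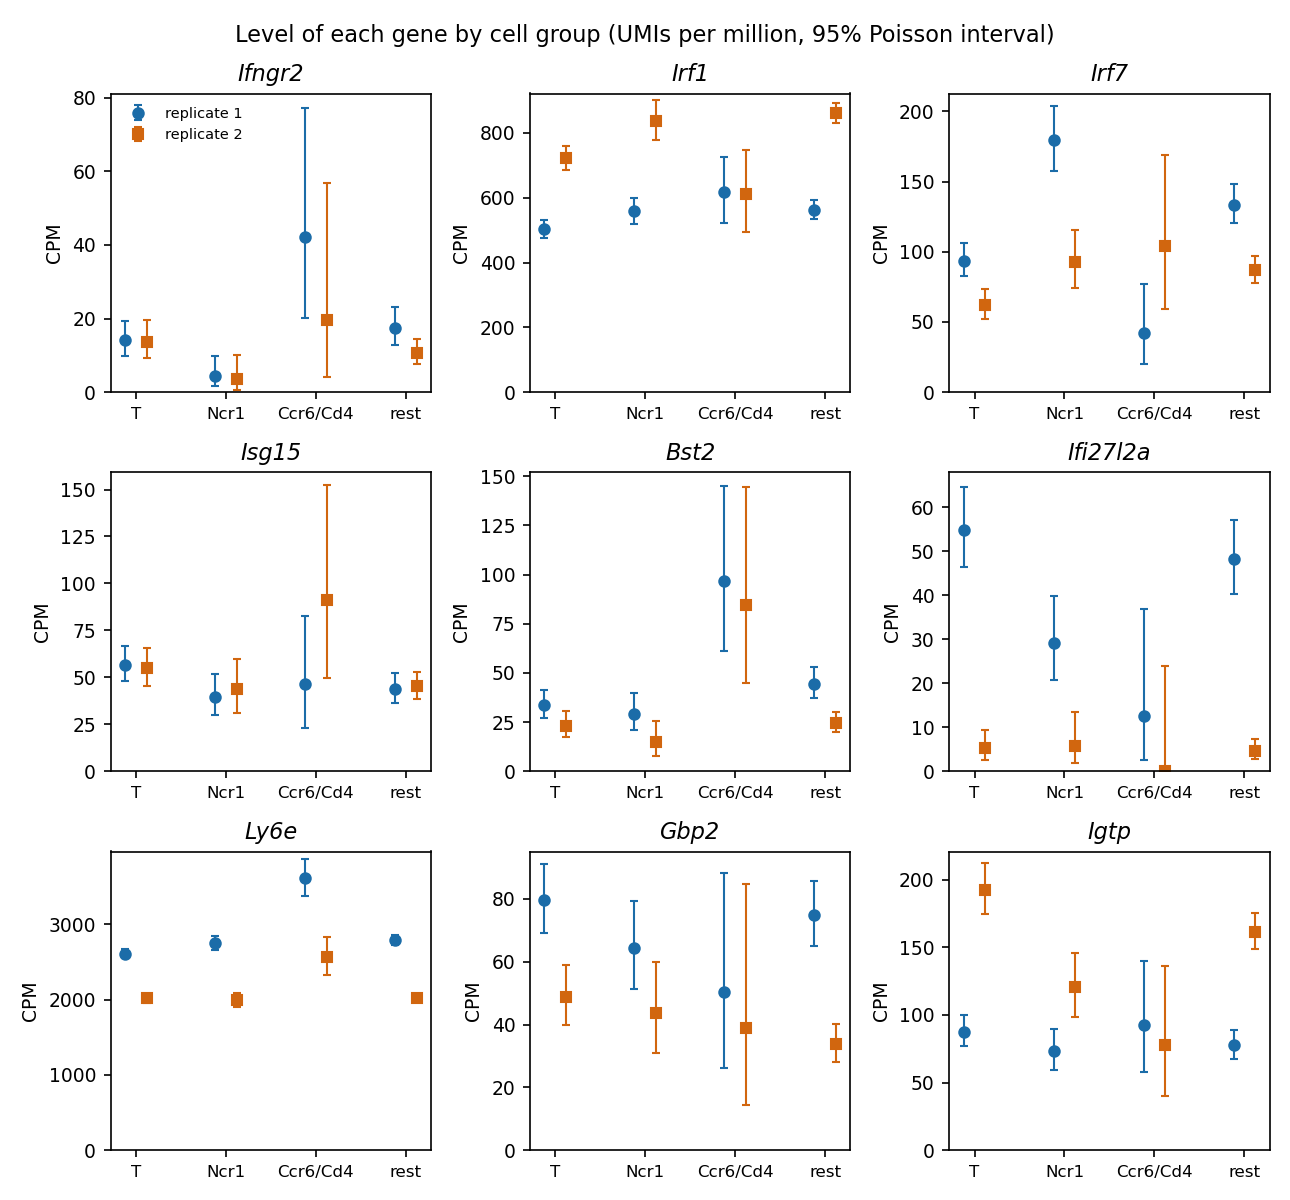
Level of each gene (y axis, CPM, starting at 0) in the 4 cell groups (x axis), with replicate 1 as blue circles and replicate 2 as orange squares and exact 95% Poisson intervals as bars. Ifngr2, Bst2 and Ly6e were highest in the Ccr6/Cd4 group within each replicate, though the Ifngr2 intervals of that group and the rest overlapped in both. Igtp was higher in replicate 2 in every group but the Ccr6/Cd4 group, and Ifi27l2a was higher in replicate 1 in every group but the Ccr6/Cd4 group, which had 3 and 0 UMIs.

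Group ratios were fitted with edgeR on UMIs summed per replicate and group, with the replicate as a block, and p-values were adjusted over 9637 genes by the Benjamini-Hochberg method at 0.05. All 9 members passed the filter on low counts. The groups are parts of the same 2 samples (n = 2). The error was estimated over the sums of all groups together, with 3 residual degrees of freedom per gene. A small p-value thus does not show that a ratio held evenly in both samples. For the members these p-values are part of the description.

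The first comparison asks how cells with Ncr1 and cells with Ccr6 or Cd4, the markers of the natural cytotoxicity receptor and lymphoid tissue inducer kinds of ILC3, differ in interferon genes. Levels of Ccr6 and Trac in the Ccr6/Cd4 group differed between replicates, and their part in the ratios against that group was not tested. Of the 9 members, 3 passed the threshold, 2 lower and 1 higher in the Ncr1 group. Of all genes 4.56% passed, 2.19% lower and 2.37% higher. Ifngr2 was 7.53-fold lower in the Ncr1 group (log2 ratio -2.91 ± 0.65 SE, edgeR adjusted p = 0.0074), with -2.87 and -2.05 in the single replicates. Bst2 was 3.72-fold lower (log2 ratio -1.90 ± 0.34, edgeR adjusted p = 0.00092), with -1.63 and -2.29. Both were thus lower in each replicate. Irf7 was 2.24-fold higher (log2 ratio 1.16 ± 0.33, edgeR adjusted p = 0.046), but this rested on replicate 1, with 2.12 there and -0.03 in replicate 2. Ly6e had a log2 ratio of -0.29 ± 0.09 (edgeR adjusted p = 0.062), and the remaining 5 had ratios between -0.55 and 1.46 with adjusted p from 0.35 to 0.84. The median log2 ratio was 0.18 over the members and 0.10 over all genes. No call was made when groups were defined by at least 2 UMIs or when any T cell receptor UMI moved a cell to the T group, which left 48 and 67 Ncr1 cells and 55 and 31 Ccr6/Cd4 cells.

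The T group was compared with the Ncr1 group to set cells with a T cell receptor complex against the Ncr1 cells of the sort. Of the 9 members 3 passed, 2 higher and 1 lower in the T group. Of all genes 11.6% passed, 5.94% higher and 5.64% lower. Ifngr2 was 3.54-fold higher in the T group (log2 ratio 1.83 ± 0.48, edgeR adjusted p = 0.012), with 1.45 and 1.74 in the single replicates. Igtp was 1.43-fold higher (log2 ratio 0.52 ± 0.17, edgeR adjusted p = 0.046), with 0.28 and 0.72. Irf7 was 1.72-fold lower (log2 ratio -0.78 ± 0.18, edgeR adjusted p = 0.0038), with -0.91 and -0.53. Each of these had the same direction in both replicates. The other 6 had log2 ratios between -0.14 and 0.82 with adjusted p from 0.066 to 0.98, and Ly6e was nearest to 0 (0.01 ± 0.09). The median log2 ratio was 0.37 over the members and 0.02 over all genes. With DESeq2, or in edgeR without the replicate block, 0 of the 9 members passed, and 5 had an unadjusted p under 0.05 in edgeR with the block.

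Between the T group and the Ccr6/Cd4 group 3 of the 9 members passed, 1 higher and 2 lower in the T group. Of all genes 10.0% passed, 5.48% higher and 4.54% lower. Bst2 was 2.87-fold lower in the T group (log2 ratio -1.52 ± 0.31, edgeR adjusted p = 0.0016), with -1.42 and -1.64 in the single replicates. Ly6e was 1.22-fold lower (log2 ratio -0.29 ± 0.09, edgeR adjusted p = 0.040), with -0.39 and -0.17, a call lost in 5 of 11 alternatives. Ifi27l2a was higher in the T group, on 155 UMIs against 3, a pooled ratio of 4.27 (95% counting interval 1.44 to 20.9, edgeR adjusted p = 0.026). The stromal marker list moved with it, at 3715 and 122 CPM in the T group and 534 and 26.0 CPM in the Ccr6/Cd4 group. Without the cells holding 10 or more UMIs of another lineage, an alternative chosen after seeing the data, the log2 ratio of Ifi27l2a was 0.76 and did not pass (edgeR adjusted p = 0.76). The remaining 6 had log2 ratios between -1.09 and 0.70 with adjusted p from 0.14 to 0.92. The median log2 ratio was 0.07 over the members and 0.10 over all genes. Without the replicate block 0 of the 9 members passed in this comparison.

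**Figure D3:**
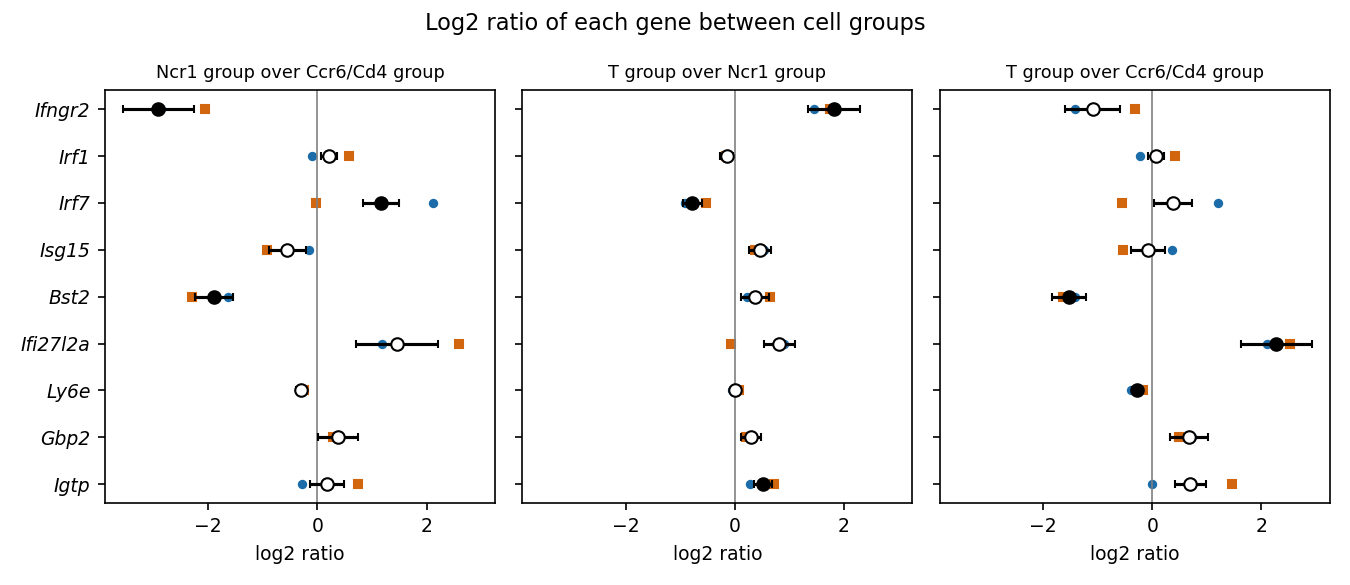
Log2 ratio of each gene between the cell groups named above each panel (x axis), as edgeR estimates with standard errors (large circles, filled where the adjusted p was below 0.05) and as values of replicate 1 (blue) and replicate 2 (orange). Bst2 lies left of 0 by 1.42 to 2.29 in both single replicates against the Ccr6/Cd4 group, and the single-replicate values of Irf7 lie at 2.12 and -0.03 in the first panel.

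The rest of the interferon system was read from 8 lists with 151 other genes, of which 116 were tested. In the Ncr1 group over the Ccr6/Cd4 group 6 were higher and 1 lower, 6.03% of those tested. In the T group over the Ncr1 group 18 were higher and 3 lower (18.1%), and in the T group over the Ccr6/Cd4 group 11 were higher and 0 lower (9.48%). Over all genes tested the shares that passed were 4.56%, 11.6% and 10.0%. The median log2 ratios of these genes were 0.16, 0.11 and 0.23, against 0.10, 0.02 and 0.10 over all genes. The counts depended on the tool, with 4, 10 and 8 genes called by DESeq2.

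Of the 10 other receptor and signalling genes tested, Ifngr1 was 1.76-fold higher in the Ncr1 group (edgeR adjusted p = 2.3e-05) and 1.71-fold higher in the T group (adjusted p = 1.5e-05) than in the Ccr6/Cd4 group. Ifnar1, a type I receptor chain, was higher in the T group than in the Ncr1 group (0.90 ± 0.24, edgeR adjusted p = 0.013).

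Beside Irf1 and Irf7, 9 interferon regulatory factor genes were tested. Irf8 and Irf5 were lower in the T group than in the Ncr1 group (log2 ratios -1.83 ± 0.24 and -0.85 ± 0.22, edgeR adjusted p = 7.2e-06 and 0.012), the same direction as Irf7. Irf2bpl, of the IRF2-binding protein family, was higher in the T group than in both other groups (0.98 ± 0.20 and 1.24 ± 0.38, edgeR adjusted p = 0.0014 and 0.038). Among 9 negative regulators, Socs2 and Cish were higher in the Ncr1 group than in the Ccr6/Cd4 group (1.88 ± 0.36 and 0.57 ± 0.15, edgeR adjusted p = 0.0015 and 0.031). Socs1, the inhibitor of JAK kinases that most restrains interferon-gamma signalling, was lower there (-1.17 ± 0.32, edgeR adjusted p = 0.031). In the T group, Ptpn1 and Socs3 were higher than in the Ncr1 group (0.65 ± 0.13 and 0.98 ± 0.23, edgeR adjusted p = 0.0014 and 0.0049), and Socs2 and Ptpn1 were higher than in the Ccr6/Cd4 group (1.44 ± 0.37 and 0.83 ± 0.22, edgeR adjusted p = 0.01 and 0.013).

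Of the 49 other type I interferon-stimulated genes tested, 1, 11 and 3 passed in the 3 comparisons in the order above, where 4.56%, 11.6% and 10.0% of all genes passed. DESeq2 called 0, 3 and 2 of the 49. In the T group over the Ncr1 group 10 were higher and 1, Rsad2, lower, with a list median of 0.39 against 0.02 over all genes. Those with the smallest adjusted p were Ly6a (log2 ratio 1.15 ± 0.20, edgeR adjusted p = 0.00031), Ms4a6b (0.85 ± 0.19, adjusted p = 0.0028), Phf11b (1.91 ± 0.50, adjusted p = 0.011) and Slfn1. Slfn1, a Schlafen family gene, had 57 UMIs in the T group and 0 in the Ncr1 group, at least 8.86-fold higher against a floor of 3 UMIs over the group (edgeR adjusted p = 0.00039). Ifitm3, which blocks virus entry, was higher in the Ncr1 and T groups than in the Ccr6/Cd4 group on 107, 289 and 4 UMIs (edgeR adjusted p = 0.014 and 0.00064). The stromal list sums were also higher in those groups, and their part in the Ifitm3 ratios was not tested.

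Of the 16 other interferon-gamma-induced GTPases tested, Irgm2 was higher in the Ncr1 group than in the Ccr6/Cd4 group (1.86 ± 0.52, edgeR adjusted p = 0.039), on 116 against 6 UMIs. Its log2 ratios in the single replicates were 3.27 and 0.92. Gbp6 was higher in the T group than in the Ccr6/Cd4 group (1.11 ± 0.32, edgeR adjusted p = 0.027), on 392 against 16 UMIs. Between the T and Ncr1 groups, where Igtp passed, 0 of the 16 did with edgeR, and 3 had an unadjusted p under 0.05. DESeq2 called 0 of the 16 in each comparison. Of 17 class I presentation genes, Nlrc5, the transactivator of the class I genes, was higher in the T group than in the Ncr1 group (1.07 ± 0.18, edgeR adjusted p = 0.00019) and than in the Ccr6/Cd4 group (1.61 ± 0.35, adjusted p = 0.0028). Of 10 nucleic acid sensor genes tested, 0 passed in each comparison with edgeR or DESeq2, and 0, 2 and 0 had an unadjusted edgeR p under 0.05.

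Ifng was the only interferon gene of the ligand list with a UMI in the kept cells. It stood at 112 and 130 CPM in the T group of replicates 1 and 2, 32.9 and 52.8 CPM in the Ncr1 group, 28.8 and 41.7 CPM in the rest and 4.20 and 13.0 CPM in the Ccr6/Cd4 group. The T group was highest and the Ccr6/Cd4 group lowest in both replicates. The Ccr6/Cd4 values rest on 1 and 2 UMIs, below the floor of 3 UMIs. Their intervals (0.106 to 23.4 and 1.57 to 46.9 CPM) overlapped those of the rest in both replicates (22.8 to 35.9 and 35.3 to 48.8 CPM). In replicate 2 the Ccr6/Cd4 interval also overlapped that of the Ncr1 group (38.7 to 70.5 CPM). The T group exceeded the Ncr1 group by a log2 ratio of 1.57 ± 0.18 (edgeR adjusted p = 9e-07) and the Ccr6/Cd4 group, on 568 against 3 UMIs, by a pooled ratio of 15.7 (95% counting interval 5.33 to 76.2). By CPM the Ccr6/Cd4 group thus had the lowest Ifng, the lowest Ifngr1 and the highest Ifngr2 of the 4 groups in both replicates. Its Ifngr2 level did not differ past the threshold from that of the T group (edgeR adjusted p = 0.2). The Ifngr2 intervals of the Ccr6/Cd4 group and the rest overlapped in both replicates.

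**Figure D4:**
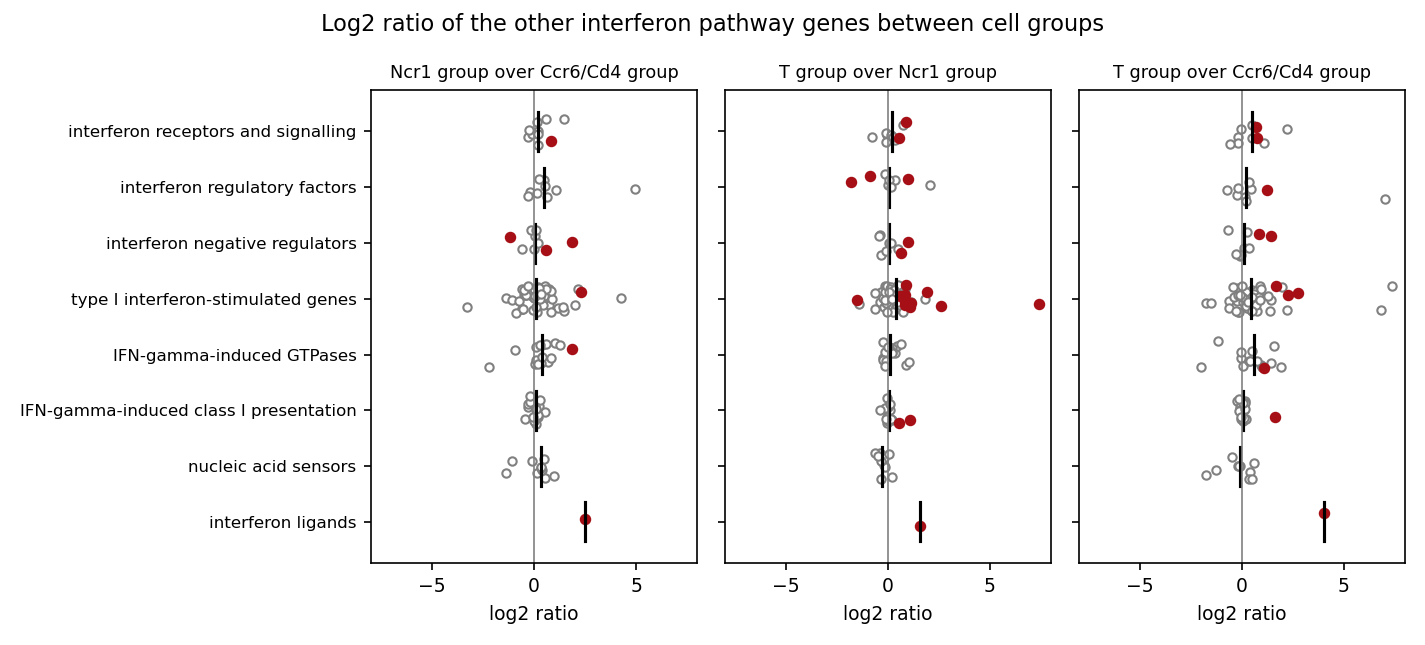
Log2 ratio (x axis) of the tested genes of each pathway list other than the 9 members (rows), between the cell groups named above each panel; filled red points had an edgeR adjusted p below 0.05 and vertical bars mark list medians. The middle panel holds the most filled points, 21 in all, of which 10 type I interferon-stimulated genes lie right of 0 and 1 left of it; the farthest points are genes with few or 0 UMIs in a group.

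Within the T group, 162 and 157 cells had an Ifng UMI and 987 and 960 had none. Irf1 stood at 506 CPM in cells with and 503 CPM in cells without an Ifng UMI in replicate 1, and at 732 and 720 CPM in replicate 2. Gbp2 was 106 against 74.8 CPM in replicate 1 and 33.6 against 51.5 CPM in replicate 2, opposite directions. Igtp was 93.8 against 86.6 CPM in replicate 1 and 125 against 205 CPM in replicate 2, where the intervals did not overlap (89.8 to 170 and 184 to 227 CPM). Ly6e was 2399 against 2651 CPM in replicate 1, where the intervals did not overlap either (2251 to 2555 and 2584 to 2720 CPM), and 2078 against 2006 CPM in replicate 2. For the other members, and for these in the other replicate, the intervals of the cells with and without an Ifng UMI overlapped.

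Between the replicates, taken over all kept cells, the members did not move together. With 1 sample on each side there is no test, and ratios carry 95% counting intervals only. Among 8165 genes with at least 100 UMIs, 5.47% were more than 1.5-fold higher in replicate 2 and 17.6% more than 1.5-fold lower. Igtp was higher in replicate 2, at 81.0 and 164 CPM, a ratio of 2.03 (1.83 to 2.25). Irf1 was higher too, at 541 and 809 CPM, a ratio of 1.49 (1.43 to 1.56). Isg15 differed by less than its interval, at 48.0 and 49.0 CPM, a ratio of 1.02 (0.876 to 1.19). The other 6 were lower in replicate 2. Ifngr2 stood at 14.6 and 10.9 CPM, a ratio of 0.747 whose interval (0.546 to 1.02) includes 1. Ly6e had a ratio of 0.740, Irf7 of 0.648, Bst2 of 0.618, Gbp2 of 0.539 and Ifi27l2a of 0.106, and none of these intervals reached 1. Without the cells with 10 or more stromal UMIs, Gbp2 stood at 65.2 and 39.7 CPM, Bst2 at 35.7 and 24.1 CPM, Igtp at 76.9 and 165 CPM and Irf1 at 531 and 810 CPM.

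**Figure D5:**
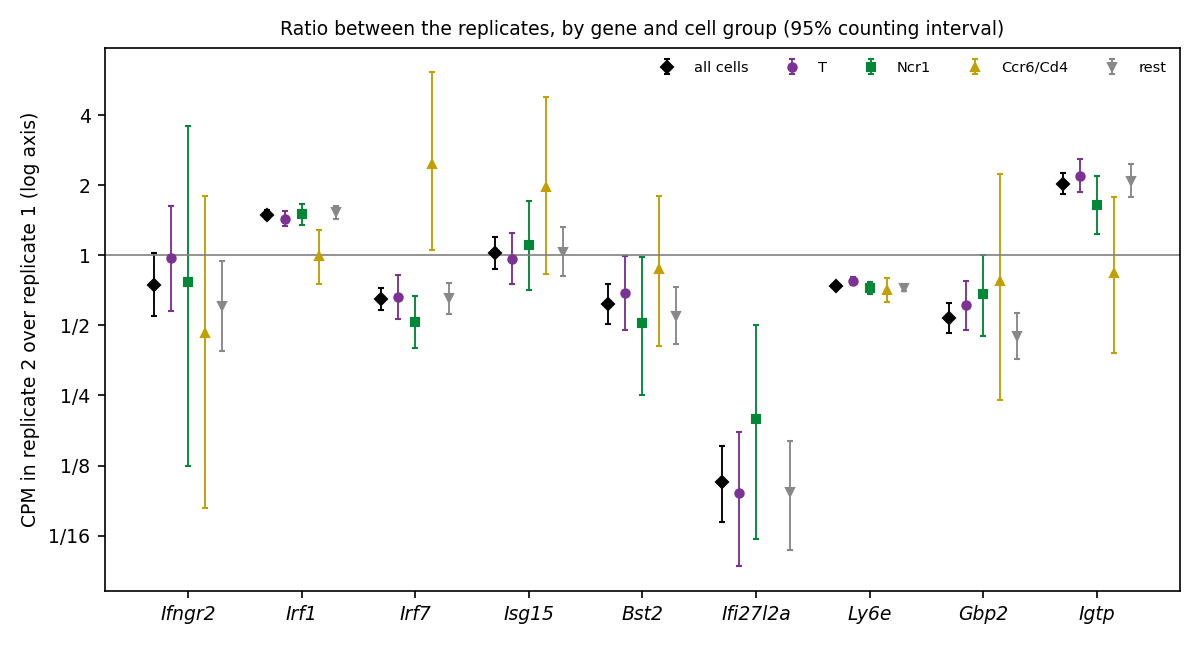
Level in replicate 2 over replicate 1 (y axis, log scale) for each gene, over all kept cells (black diamonds) and in each cell group, with 95% counting intervals; the Ccr6/Cd4 point of Ifi27l2a is left out because it had 0 UMIs in replicate 2. Igtp (2.03 over all cells) and Irf1 (1.49) lie above 1, and Ifi27l2a (0.106) lies lowest.

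Other GTPases of the interferon-gamma list also differed between the replicates, in both directions. Of 14 with at least 100 UMIs, 5 were more than 1.5-fold higher in replicate 2 and 3 more than 1.5-fold lower. Of all genes 5.47% were higher and 17.6% lower by that measure, so the count of lower GTPases is near the share over all genes. Tgtp1 (22.0 and 57.4 CPM), Tgtp2 (41.1 and 102 CPM), Irgm1 (22.3 and 49.3 CPM), Ifi47 (101 and 167 CPM) and Gbp6 (54.6 and 86.6 CPM) were higher in replicate 2, as Igtp was. Iigp1 (76.2 and 29.5 CPM), Gbp3 (14.3 and 7.05 CPM) and Gbp7 (99.1 and 59.8 CPM) were lower there, as Gbp2 was. Tgtp1 and Tgtp2 are near-identical copies whose reads may be split between them, so each value is uncertain. Of 42 other type I interferon-stimulated genes, 1 was more than 1.5-fold higher in replicate 2 and 15 more than 1.5-fold lower, where 17.6% of all genes were lower. Among these were Ifitm3 (95.1 and 11.0 CPM) and Ifitm1 (25.8 and 4.11 CPM). The stromal marker sums, 534 to 4688 CPM in replicate 1 and 26.0 to 122 CPM in replicate 2, moved the same way, and their part in these counts was not tested. The named genes past 1.5-fold were chosen after their values were seen.

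Within cells, co-detection was read after thinning to 1000 UMIs. With Ly6e left out, 45.7% of 3151 cells in replicate 1 and 40.3% of 3527 cells in replicate 2 had none of the other 8, and 42.0% and 45.2% had 1. Gbp2 and Igtp were found together in 26 and 23 cells, 1.88 and 1.42 times the number that their separate shares give. Isg15 and Bst2 were found together in 7 and 6 cells, 1.59 and 1.89 times that number, and Isg15 and Igtp in 15 and 26 cells, 1.77 and 1.32 times. Irf7 and Igtp were together in 20 and 25 cells, 0.887 and 0.727 times. These pairs were chosen after all pairs were seen. At this depth a cell without a UMI may still express a gene, and the pairs with few cells carry a wide counting error.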

How the data were processed

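The deposited tables hold unnormalised UMI counts per cell and gene, which per the file headers came from version 1.8 of BD's Rhapsody WTA multiplex pipeline, and a second deposited table gives each cell's sample tag. Only cells of each replicate's own tag (3427 and 3954) were used. After the filter on genes and mitochondrial UMIs, 6939790 and 6810214 UMIs remained; genes missing from either table were set to 0. Counts were summed into 8 sums (2 replicates, 4 groups) and fitted in edgeR 4.0.16 under R 4.3.3 (TMM, filterByExpr, quasi-likelihood F-tests), with a block for the replicate. The 6 defining genes stayed in the scaling and the fit. Their p-values were left out before the adjustment in edgeR and after it in DESeq2. Single-replicate log2 ratios use a prior count of 2, and CPM are unscaled. Poisson and binomial intervals are exact, at 95%, and cover counting error only. Gene positions are from GENCODE on GRCm38, matched by symbol. No doublet caller was run beyond the deposited tag multiplets. The members and lists were chosen with earlier results of these data known. Beside the members, the text names up to 4 passing genes per list and comparison by smallest adjusted p, and the 3 genes most like Ifngr2, Irf7 and Ly6e. Alternatives were RLE scaling, DESeq2 1.42.0, no count filter, no block, thinning, looser and stricter cell filters, other group rules, and leaving out cells with other-lineage UMIs. The values of 1 listed pathway gene are not reported here.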

Additional observations from a re-analysis of the deposited data

How the results depend on the processing

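Of the 9 calls on members, Bst2 in the T group over the Ccr6/Cd4 group was lost in 2 of 11 alternatives, and Bst2 and Ifngr2 in the Ncr1 group over the Ccr6/Cd4 group in 3 of 11 each. Irf7 in the latter comparison was lost in 7 of 11. In the T group over the Ncr1 group, Ifngr2 was lost in 6, Igtp in 5 and Irf7 in 4 of 11, and in the T group over the Ccr6/Cd4 group Ly6e was lost in 5 of 11 and Ifi27l2a in 6 of 10. Without the replicate block 0, 0 and 0 members passed in the 3 comparisons in the report's order (0.104%, 0.872% and 1.16% of all genes), and of the other pathway genes 0, 0 and 1. With the T group taken from any T cell receptor UMI, 0, 0 and 1 members (Igtp) and 2, 1 and 4 pathway genes passed. That rule put 2919 of 3337 and 3273 of 3840 kept cells in the T group. In the main grouping 58.2% and 52.5% of Ncr1 cells had a UMI of the T cell receptor gene Trbc1. Calls lost under that rule thus say little about the main groups, because it moves most Ncr1 cells. With at least 2 UMIs for each group, 0, 0 and 1 members (Bst2) and 3, 12 and 6 pathway genes passed. DESeq2 called 0 members in the T group over the Ncr1 group, and 4 and 10 pathway genes in the first 2 comparisons. Thinning left 3 and 12 pathway genes there, and leaving out cells with 2 or more other-lineage UMIs left 1 member (Irf7) in the T group over the Ncr1 group and 4 pathway genes in the Ncr1 group over the Ccr6/Cd4 group. The pathway alternatives were added after seeing the data. Directions turned, beside those of uncalled single-replicate ratios given next, in 9 values: for the Ncr1 group over the Ccr6/Cd4 group, Irf7 without replicate 1 (-0.032, against 2.12 without replicate 2), Isg15 (0.022) and Ifi27l2a (-6.09) with any T cell receptor UMI, and Ifi27l2a without cells with 10 or more other-lineage UMIs (-0.15); for the T group over the Ncr1 group, Isg15 (-0.24) and Gbp2 (-0.57) with any T cell receptor UMI and Bst2 (-0.026) with at least 2 UMIs; and for the T group over the Ccr6/Cd4 group, Ifngr2 (0.47) with at least 2 UMIs and Isg15 (0.11) without cells with 2 or more other-lineage UMIs. Of these, only Irf7 was called. For uncalled ratios a single replicate had the opposite sign to the fit for Irf1 (-0.089) and Igtp (-0.27) in the Ncr1 group over the Ccr6/Cd4 group, Ly6e (-0.055) and Ifi27l2a (-0.076) in the T group over the Ncr1 group, and Irf1 (-0.22), Irf7 (-0.56) and Isg15 (0.37) in the T group over the Ccr6/Cd4 group. The cause was not tested, beyond fewer cells in the stricter groups. Leaving out a replicate leaves no residual degrees of freedom, so no count of calls exists there. Ifi27l2a could not be fitted without the cells with 2 or more other-lineage UMIs, because it fell to the count filter. Ratios on the 13 Ccr6/Cd4 UMIs of Ifngr2 are limited by depth.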
